A study of Mus musculus with 2 samples.

Results

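Erfe, Fgl1, Gdf15 and Twsg1 encode secreted proteins that have been named as suppressors of hepcidin or as hormones released by stressed or expanding erythroid cells. These 4 genes, of 21743 with a symbol on the array, were followed in mouse G1E-ER-GATA-1 cells in which Lmo2 had been knocked down. They were found by gene symbol or by RefSeq accession, and they were selected on their log2 ratios of LMO2 siRNA over control siRNA on these same arrays, where Erfe and Fgl1 were among the lowest. The members' ratios are therefore a description, and the calls printed for them further on are no test of these genes. The array carries 7 probes for them, of which 6 were used. Erfe stands on the array under the name BC056923 and was recognised through its RefSeq accession.

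The arm under study received LMO2 siRNA and its counterpart received control siRNA. Both arms are G1E-ER-GATA-1 cells, an erythroid line derived from GATA-1-null embryonic stem cells that carries GATA-1 fused to an estrogen receptor domain, and both were kept in b-estradiol for 24 h after transfection so that GATA-1 became active. The control arm thus also lacks the endogenous Gata1 gene product and is also maturing. The line is a cell culture model of erythroid maturation, and the secreted factors had no liver to act on in it. Each of 2 two-colour arrays carried both arms, with LMO2 siRNA in Cy3 and control siRNA in Cy5. The dyes were never exchanged, so dye and siRNA cannot be told apart. Nothing in the labels says that the 2 arrays came from separate cultures, and p-values measure only the spread between these arrays, which may be technical.

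Hepcidin, encoded by Hamp, is the liver hormone that closes the iron exporter ferroportin. The liver makes it in response to bone morphogenetic protein (BMP) ligands acting through SMAD proteins. Erythroferrone, the product of Erfe, is released by erythroblasts under erythropoietin and JAK2-STAT5 signalling, binds BMP ligands and so lowers hepcidin when red cell production needs iron. FGL1 is a fibrinogen-related protein best known as a liver product and as a ligand of the immune receptor LAG3, and in mice it has been described as a further BMP-binding hepcidin suppressor. GDF15 is a distant member of the TGF-beta family that rises in ineffective erythropoiesis and in cell stress, where ATF4, CHOP and p53 can induce it. TWSG1, twisted gastrulation, is a BMP-binding protein that has been described as an early erythroblast product.

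The probes on which the members' values rest are shown here because the Fgl1 probes gave different answers. Each is a 60-base oligonucleotide copied from the array file, 5′ to 3′. The Gdf15 probe and the Fgl1 probe designed on the RefSeq transcript are given whole, and the first 30 bases are given of the others. On GRCm38.p6 the annotated genes lie on chromosome 1 (Erfe, chr1:91366305-91374217), chromosome 8 (Fgl1, chr8:41191434-41217978, and Gdf15, chr8:70629393-70632470) and chromosome 17 (Twsg1, chr17:65923065-65951187). Those positions are the genes' own, and the probes themselves were not placed on the genome.
Erfe: tgtgtcatattgctaggcagaatatattta
Fgl1, cDNA probe: ccctcaaactataaattatcctagttttaa
Fgl1, RefSeq probe: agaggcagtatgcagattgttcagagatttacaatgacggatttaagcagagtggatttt
Gdf15: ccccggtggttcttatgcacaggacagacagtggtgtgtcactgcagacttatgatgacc
Twsg1, brightest probe: aggactgtagcttattggtaattaaggtac
The 2 Fgl1 probes have no stretch in common longer than 6 bases. The first is 35.0% G or C and has a stop codon in all 3 forward reading frames, whereas the second is 38.3% G or C and is free of stop codons in 2 of the 3.

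The arrays were first checked on the targeted gene and on cell type markers. Lmo2 read 1735 and 1573 units of normalised intensity with LMO2 siRNA, against 6114 and 6361 with control siRNA, and its ratio was lower on both arrays. Of the genes' spots, 55.8% to 62.9% were well above background in the LMO2 siRNA channel and 60.4% to 68.2% in the control channel. All 10 erythroid markers on the array were well above background in both arms, among them Klf1, Alas2 and Slc4a1. The labels also call the cells embryonic stem cells, and of 8 pluripotency markers 5 were well above background in both arms at low signal. The brightest, Dppa5a, read at most 126 with LMO2 siRNA and 149 with control siRNA and was called higher (0.38), Pou5f1 read at most 61.3 and 83.2, and Nanog was not well above background anywhere. Background-subtracted intensity summed over these 8 was 209 to 269 with LMO2 siRNA and 308 to 456 with control siRNA, and their part in the results was not tested. The ratio fell off towards one end of the array: the median log2 ratio of the first 20 rows was -0.22 and -0.24, and that of rows 481 to 500 was 0.17 and 0.13. The members' values are therefore given in 3 versions, with the loess version used where none is named: background-corrected and loess-normalised signals, the same signals divided by the scanner's factor for position, and the scanner's own processed signals.

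Erfe was lower with LMO2 siRNA on both arrays. Before normalisation its spot gave 217 and 164 intensity units with LMO2 siRNA, against 836 and 604 with control siRNA, over a local background of 44 to 47. After normalisation it read 299 and 231 with LMO2 siRNA and 660 and 496 with control siRNA. The arms do not overlap, since the higher LMO2 siRNA value lies below the lower control value. Such overlap compares channels of separate arrays, which loess did not put on a common scale, so the ratio within each array is the measurement. For any member, separation of the arms is no result, since this contrast chose the members. The share of all genes that separate so is not given here, and 52.0% of all genes were called in the fit described below. The arrays gave log2 ratios of -1.14 (replicate 1) and -1.10 (replicate 2), a mean of -1.12 ± 0.03 (SD, n = 2) and a 2.18-fold lower signal. In these bulk samples fewer cells that express a gene and less of its RNA per cell cannot be told apart.

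The size of the Erfe difference depended on where its spot lies. The spot is in row 1 of 532, at the end of the array where ratios were lowest. Used probes within 10 rows of it had a median log2 ratio of -0.22 and -0.23 on the arrays. With position correction the Erfe ratio was -0.78 and -0.57, and the same neighbours then read 0.11 and 0.22, so the scanner's factor moved this edge past 0. In processed signals Erfe read -1.01 and -0.90, with its neighbours at -0.08 and -0.07. Set against its neighbours, Erfe averaged -0.90 after loess alone, -0.84 after position correction and -0.88 in processed signals. On this relative scale the 3 versions lie closer together than the means of -1.12, -0.68 and -0.96 they start from. Neighbouring rows share much of the position factor, so subtracting their median removes it, and the closeness is no separate evidence on the size. At row 1 the neighbouring rows lie on 1 side only. The scanner software's own error for the spot was 0.22 log2 units on each array, far above the SD of 0.03 between the arrays.

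Fgl1 differed between its probes. The cDNA probe was among the brighter spots, with 5488 and 4767 intensity units for LMO2 siRNA, against 21617 and 20012 for control siRNA. After normalisation it read 7715 and 6612 with LMO2 siRNA and 15442 and 14518 with control siRNA, with no overlap of the arms and no saturated spot. Its log2 ratio was -1.001 and -1.13, a mean of -1.07 ± 0.09 (SD, n = 2) and a 2.10-fold lower signal. It kept this direction with position correction (-0.77 and -0.84) and in processed signals (-0.77 and -0.84), and read -0.92, -0.87 and -0.73 against its neighbouring rows in the 3 versions.

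The RefSeq probe for Fgl1 carried next to no signal. It read 49.0 and 41.9 intensity units with LMO2 siRNA, against 64.6 and 50.4 with control siRNA, over a local background of 36.5 to 41 in the LMO2 siRNA channel and 43 to 47 in the control channel. It was not well above background in either channel on either array, so no fold is given and it did not enter the fit. The lower ratio reported for Fgl1 therefore rests on the cDNA probe alone, which the array file ties to Fgl1 by symbol and not by the RefSeq transcript. Other genes on this array had such a gap too. Counted with Fgl1 itself, 883 genes had several probes of which at least 1 was as bright as the Fgl1 cDNA probe. Of these genes 55 (6.23%), Fgl1 among them, had another probe that was not well above background in any channel.

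Values of liver genes stand beside this, since FGL1 is mainly known from liver. Of 11 hepatocyte markers on the array, 7 were not well above background in any channel, among them Alb, Ttr, Apoa1, Apoa2 and Cps1. Summed over the list, background-subtracted intensity was 162 to 237 with LMO2 siRNA and 291 to 417 with control siRNA, and 2 of the 11, Tat and Ahsg, were well above background in both arms. Their part in the Fgl1 signal was not tested.

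Gdf15 was lower with LMO2 siRNA on both arrays, by less than Erfe. Its probe read 270.0 and 260 intensity units with LMO2 siRNA, against 760 and 791 with control siRNA. After normalisation these were 370 and 363 with LMO2 siRNA and 596 and 633 with control siRNA, and the arms did not overlap. The log2 ratio was -0.69 and -0.80, a mean of -0.74 ± 0.08 (SD, n = 2) and a 1.68-fold lower signal. The spot lies in row 212, where neighbouring probes had medians of -0.04 and -0.06. Its ratio moved little between versions, with means of -0.65 ± 0.07 after position correction and -0.78 ± 0.07 in processed signals.

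Twsg1 gave no stable difference. Its brightest probe read 1362 and 1267 intensity units with LMO2 siRNA, against 2371 and 1950 with control siRNA, which after normalisation became 1862 and 1722 with LMO2 siRNA and 1772 and 1481 with control siRNA. Within each array the LMO2 siRNA value was the higher. Across arrays the arms overlap, because the LMO2 siRNA value of replicate 2 lies below the control value of replicate 1. The log2 ratio was 0.07 and 0.22 (mean 0.14 ± 0.10, SD, n = 2), but position correction turned it to -0.17 and -0.02, and processed signals to -0.18 and -0.03. That probe lies in row 473, where the neighbours' medians were 0.16 and 0.12, and its mean ratio against them was 0.0038. The second probe had opposite signs on the arrays (0.13 and -0.10), and so had the dimmest one (0.03 and -0.07).

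**Figure D1:**
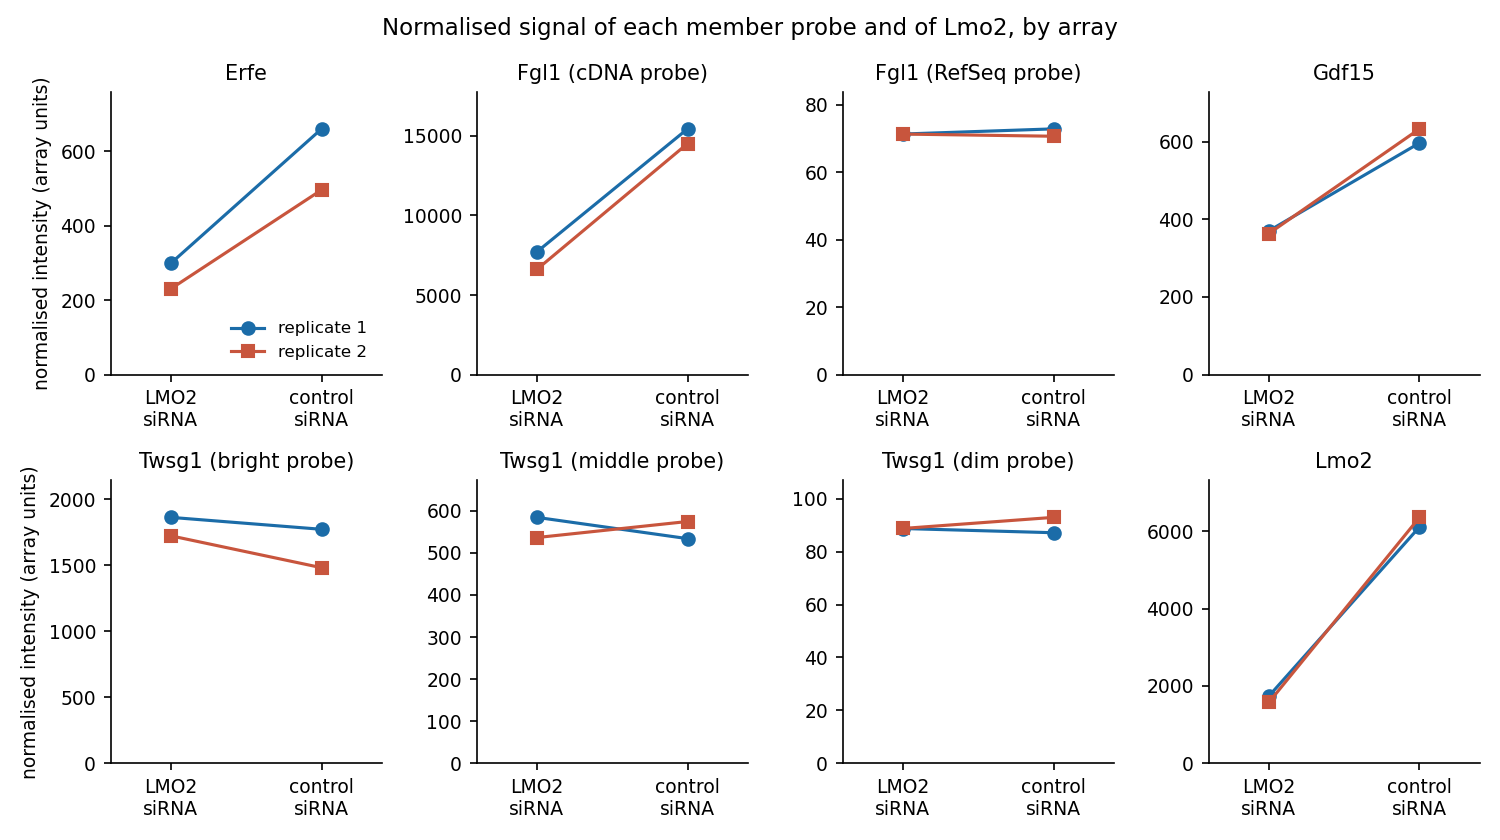
Normalised intensity (array units, axes start at 0) of every member probe and of Lmo2, with LMO2 siRNA left and control siRNA right and a line joining the channels of each array. Erfe, the Fgl1 cDNA probe, Gdf15 and Lmo2 are lower with LMO2 siRNA on both arrays, while the Fgl1 RefSeq probe stays between 70.7 and 72.9 units, a level set mainly by the offset of 50 in the background correction.

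**Figure D2:**
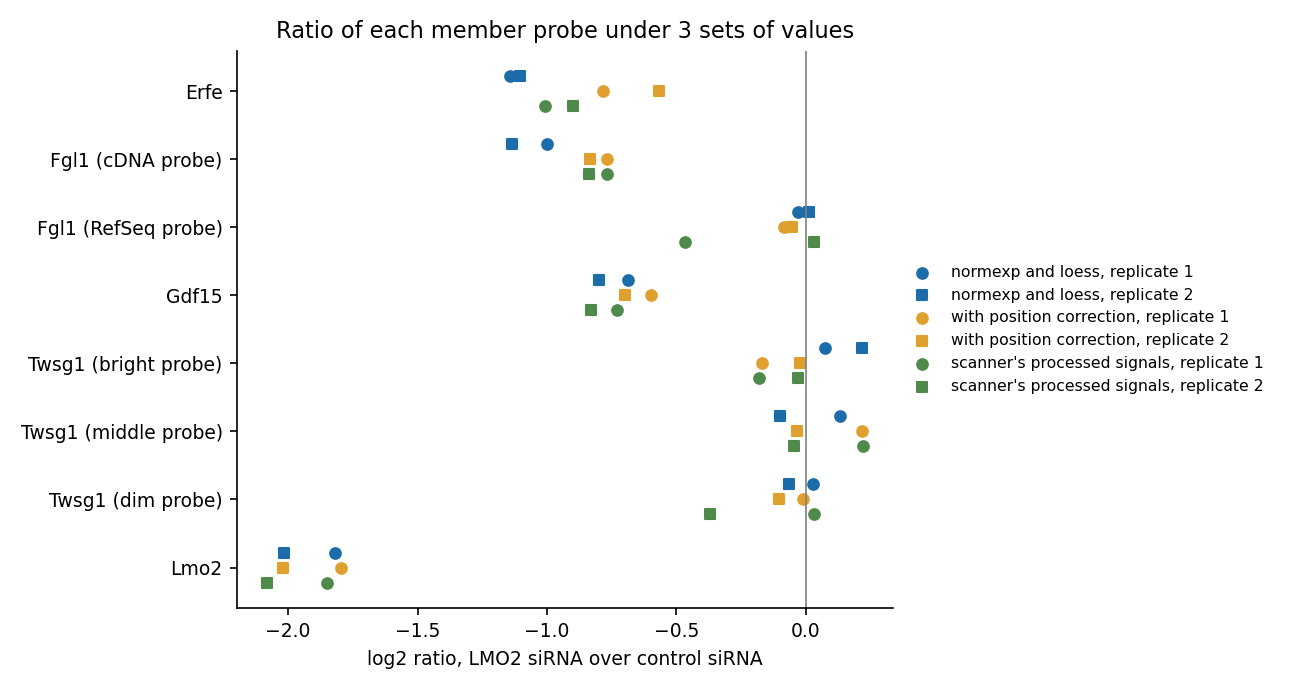
Log2 ratio of LMO2 siRNA over control siRNA for each probe (circle, replicate 1; square, replicate 2) in the 3 versions of the values. Points of Erfe, the Fgl1 cDNA probe and Gdf15 lie below -0.5 in every version, and those of the Twsg1 probes fall on both sides of 0.

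**Figure D3:**
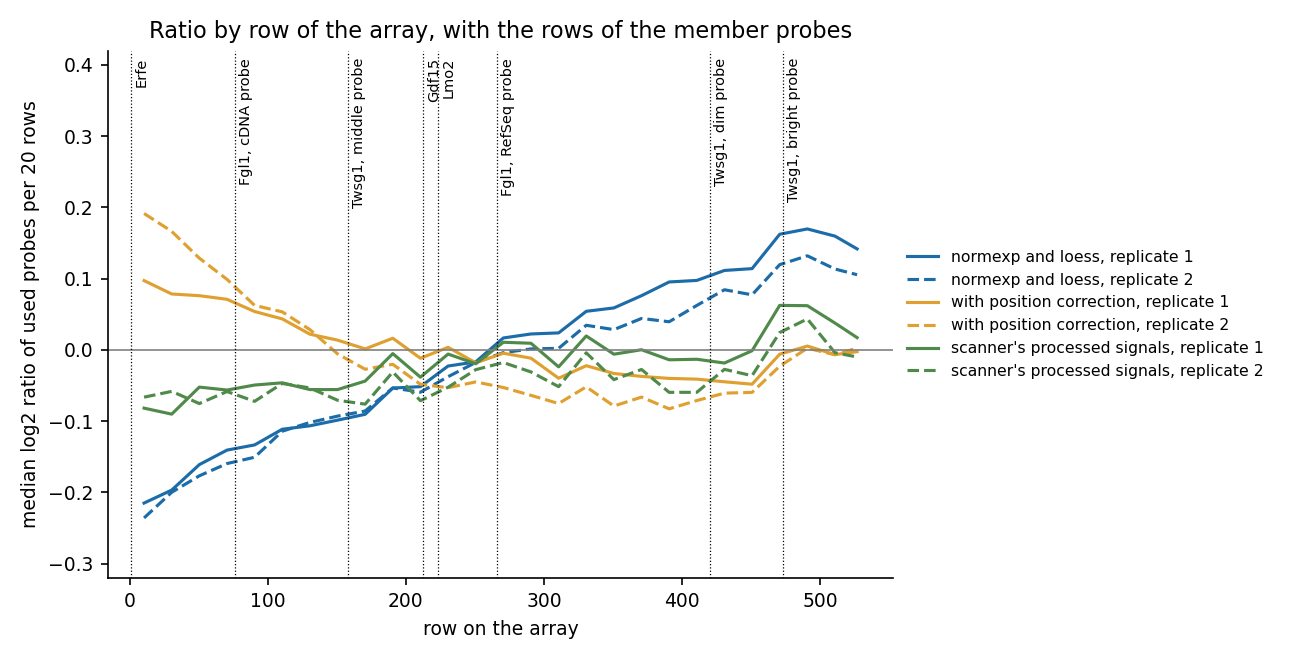
Median log2 ratio of used probes in bins of 20 rows against the row on the array, for both arrays (solid, replicate 1; dashed, replicate 2) and the 3 versions of the values, with dotted lines at the rows of the member probes and of Lmo2. Erfe lies at the edge where the uncorrected median is lowest (-0.22 and -0.24) and the position-corrected median is highest (0.10 and 0.19).

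In a limma fit over all 14181 measured genes, with Benjamini-Hochberg adjustment, 3 of the 4 members were called lower and Twsg1 was called higher. The fit called 27.4% of all genes lower and 24.6% higher, 52.0% in all. With position correction 20.6% were called lower and 24.2% higher (44.9% in all), and in processed signals 3.55% lower and 7.02% higher (10.6% in all). In all 3 versions of the values Erfe, Fgl1 and Gdf15 were called lower and Twsg1 was not called the same way, beside 2.52% of genes called lower and 5.49% called higher in all 3 versions without saturation (8.02% together). Nothing is read from these counts, since this comparison chose the members. Ordered from the lowest mean log2 ratio, Erfe stood at place 6 of 14181, Fgl1 at 8, Gdf15 at 70 and Twsg1 at 10866. With position correction the places were 35, 16 and 42 for Erfe, Fgl1 and Gdf15, and in processed signals 98, 169 and 185. Below, "called" means an adjusted p under 0.05 in the limma fit of loess-normalised values, and "rose" and "fell" are kept for genes without saturation, and well above background in both arms, whose call had 1 direction throughout the 3 versions.

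The genes whose ratios came nearest to the members' on the 2 arrays were found by Euclidean distance between pairs of log2 ratios. For Erfe they were Uba3 (distance 0.09), Fgl1 (0.14) and Dcaf12l2 (0.15). Dcaf12l2 (0.0029), Mcemp1 (0.05) and Phc1 (0.08) were nearest to Fgl1. Serinc5 (0.0097), Pitpna (0.02) and Retreg3 (0.03) were nearest to Gdf15, and Ampd2 (0.0063), Bambi (0.0074) and Commd4 (0.0092) to Twsg1. With 2 arrays this likeness means a similar ratio on each and no more. Position correction parted some of these pairs: Uba3 kept a mean of -0.97 where Erfe read -0.68, and Bambi and Twsg1 then had opposite signs, at 0.13 and -0.10.

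Upstream of Erfe, the erythropoietin receptor pathway was mixed. Of 22 genes, all measured, 7 were called higher, 8 lower and 7 neither, with a median log2 ratio of -0.02, equal to the median over all genes of -0.02. That is 31.8% higher and 36.4% lower, where 24.6% and 27.4% of all genes were called. Position correction moved the list's median to 0.07, and processed signals to 0.06. In all 3 versions, where 5.49% of all genes were called higher and 2.52% lower without saturation, 3 of the list rose and 0 fell. They were Socs1 (0.64 ± 0.19), a feedback inhibitor of JAK kinases, Stat3 (0.59 ± 0.11), a transcription factor of cytokine receptors, and Spry1 (0.71 ± 0.20), an inhibitor of receptor tyrosine kinase signalling, with limma adjusted p of 0.0239, 0.0437 and 0.0430 in processed signals, the least certain version.

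The core genes of that pathway were not called the same way in all 3 versions. Epor, the erythropoietin receptor gene, read 7783 and 6899 intensity units with LMO2 siRNA, against 12097 and 10523 with control siRNA. Its log2 ratio was 0.33 and 0.32, with a mean of 0.17 after position correction and 0.18 in processed signals. Jak2, the kinase bound to that receptor, was called lower at -0.26 ± 0.02 but read 0.05 with position correction, and a dimmer Jak2 probe read 0.16. Stat5a (0.47 ± 0.10) was called higher and Stat5b (-0.30 ± 0.06) lower, and in processed signals neither was called (adjusted p of 0.0696 and 0.0873). The STAT5 targets Cish, Pim1, Bcl2l1 and Socs2, named after their values were seen, moved with the version. After loess Pim1 (-0.27) and Bcl2l1 (-0.34) were called lower and Cish (-0.02) and Socs2 (0.09) were not called. Dimmer probes differed, with 0.24 and 0.13 for Bcl2l1, 0.15 for Pim1 and 0.32 for Socs2. With position correction Cish (0.19) and Socs2 (0.32) were called higher and Pim1 read 0.04. Bcl2l1 (-0.22) then stayed lower by its brightest probe, while its dimmer probes read 0.08 and 0.10. In processed signals none of the 4 was called, with limma adjusted p between 0.0941 and 0.814. Gata1 itself read -0.24 and was called lower after loess, but not at -0.12 with position correction or -0.15 in processed signals, with Gata1 signal of the endogenous locus and of the introduced fusion not told apart here.

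Among the BMP, SMAD and hepcidin genes, the hepcidin gene Hamp and its main liver ligand gave no signal well above background. Of 36 genes, 23 were measured, and the others had no probe that met the filter on dim spots. Hamp read 45.3 and 41.6 intensity units with LMO2 siRNA, against 55.3 and 50.5 with control siRNA, and Bmp6, the main ligand that drives hepcidin in liver, read at most 46.1 with LMO2 siRNA and 57.5 with control siRNA over its 2 probes. Hamp2, the second mouse gene of the hepcidin family, was well above background in both channels, with 94.9 and 92.5 units for LMO2 siRNA and 144 and 139 for control siRNA, and its log2 ratio of 0.03 was not called. Of the measured genes 5 were called higher (21.7%), 4 lower (17.4%) and 14 neither, shares below those of all genes, with a median of -0.02 (0.0085 after position correction, 0.0035 in processed signals).

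Bmpr2, the type II BMP receptor gene, was the sole member of that list that rose, 1 of 23 measured. Of all genes 5.49% were called higher in all 3 versions without saturation. Its brightest probe read 1190 and 1318 intensity units with LMO2 siRNA, against 1621 and 1649 with control siRNA, which gave 0.46 ± 0.07 after loess and 0.61 in each of the other versions, and the limma adjusted p in processed signals was 0.0376. Its other probes read 0.54 and 0.46. Smad6, an inhibitory SMAD gene that BMP signals switch on, was called higher at 0.49 ± 0.20, from spots of 88.1 and 72.4 units with LMO2 siRNA and 82.3 and 73.8 with control siRNA, and missed the threshold in processed signals (adjusted p = 0.0524). Smad1 (0.23 ± 0.10), a SMAD that carries BMP signals, and Chrd (-0.20 ± 0.07), the BMP antagonist chordin to which TWSG1 binds, were called without holding in all 3 versions. Id1, a standard BMP target gene, was called lower at -0.20 ± 0.07 by its brighter probe, while its other probe read 0.09. With position correction each Id1 probe read -0.02.

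Genes that lie upstream of Gdf15 or share its inducers were called lower more often than higher. Of 24 genes 20 were measured, 10 were called lower, 4 higher and 6 neither, where 27.4% of all genes were called lower and 24.6% higher, and the median log2 ratio was -0.18, against -0.02 for all genes. After position correction that median was -0.08, and processed signals gave -0.11. In all 3 versions 4 fell and 0 rose, out of the 20, where 2.52% of all genes were called lower and 5.49% higher without saturation. This list was drawn up with earlier results of these arrays known, Eda2r and Trp53inp1 among them, so its direction is no independent evidence.

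The genes that fell were 2 of the ATF4 branch and 2 targets of p53. Ddit3, which encodes CHOP, read 4165 and 4629 intensity units with LMO2 siRNA, against 10227 and 10049 with control siRNA, and fell by 0.28 ± 0.10 (-0.50 in each of the other versions, adjusted p = 0.0498 in processed signals). Atf5, a related stress factor gene, fell by 0.39 ± 0.08. Eda2r, a death receptor gene, fell by 0.73 ± 0.02 by its brightest probe, which sits in row 26 and read -0.37 with position correction, while another used probe read -0.13. Trp53inp1 fell by 0.71 ± 0.03, and its second probe read -0.61. Trib3 (-0.61 ± 0.20), a pseudokinase induced through CHOP, and Eif2ak1 (-0.57 ± 0.15), the heme-regulated kinase that feeds ATF4 in erythroid cells, were called lower without reaching the threshold in processed signals (adjusted p of 0.0764 and 0.0678), and the 4 Eif2ak1 probes ran between -0.57 and 0.19. Atf4 was called lower at -0.30 ± 0.03, with -0.16 after position correction. Trp53 was called higher at 0.25 ± 0.03, although its second probe read 0.02, and the p53 target Cdkn1a was called higher at 0.16 ± 0.02. Asns and Eif2ak4 were called higher too, among the list's 4 higher and 10 lower. Asns, from a saturated probe, read 0.21 ± 0.24, with 0.56 after position correction and 0.61 in processed signals. Eif2ak4 read 0.18 ± 0.05, and its other probes -0.0067 and -0.0025. Ppp1r15a (0.14 ± 0.25) and Sesn2 (-0.04 ± 0.06) were not called.

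The families and receptors of the 4 factors were measured in part. Of 38 genes 18 were measured, 6 were called higher, 3 lower and 9 neither, with a median of 0.03 (-0.01 after position correction, -0.00086 in processed signals). The 33.3% called higher and 16.7% called lower stand beside 24.6% and 27.4% of all genes. Those called higher include Fgl2, which met the filter through the LMO2 siRNA channel alone. They also include C1qtnf1 and Tgfb3, whose control channel was well above background on 1 array only. With both channels required well above background, 3 were called higher and 3 lower, so the share called higher depends on the filter. Lag3, the receptor gene for FGL1, was not well above background, and no probe of Gfral, the GDF15 receptor gene, was found. The fibrinogen genes Fga, Fgb and Fgg did not meet the filter. No test is given for Fgl2, the paralog of Fgl1, because it met the filter through the LMO2 siRNA channel alone. Its brighter probe read 65.0 and 65.6 intensity units with LMO2 siRNA, against 61.6 and 58.1 with control siRNA. Its control channel was not well above background on either array. After loess the plain ratio was 1.31-fold higher with LMO2 siRNA, a log2 ratio of 0.38. Position correction gave 0.24 and processed signals 2.40, so the size depended on the version and 1.31 is no lower limit.

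The other named genes of these families did not hold in all 3 versions. C1qtnf1, which like Erfe belongs to the C1q/TNF-related family, had a mean of 0.67 that came from replicate 2 (1.43), with -0.10 on replicate 1. Angptl6, an angiopoietin-like gene with a fibrinogen-like domain, was called lower at -0.35 ± 0.08, and its second probe read -0.09. Inhbb, an activin subunit gene, was called higher at 0.31 ± 0.20.

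**Figure D4:**
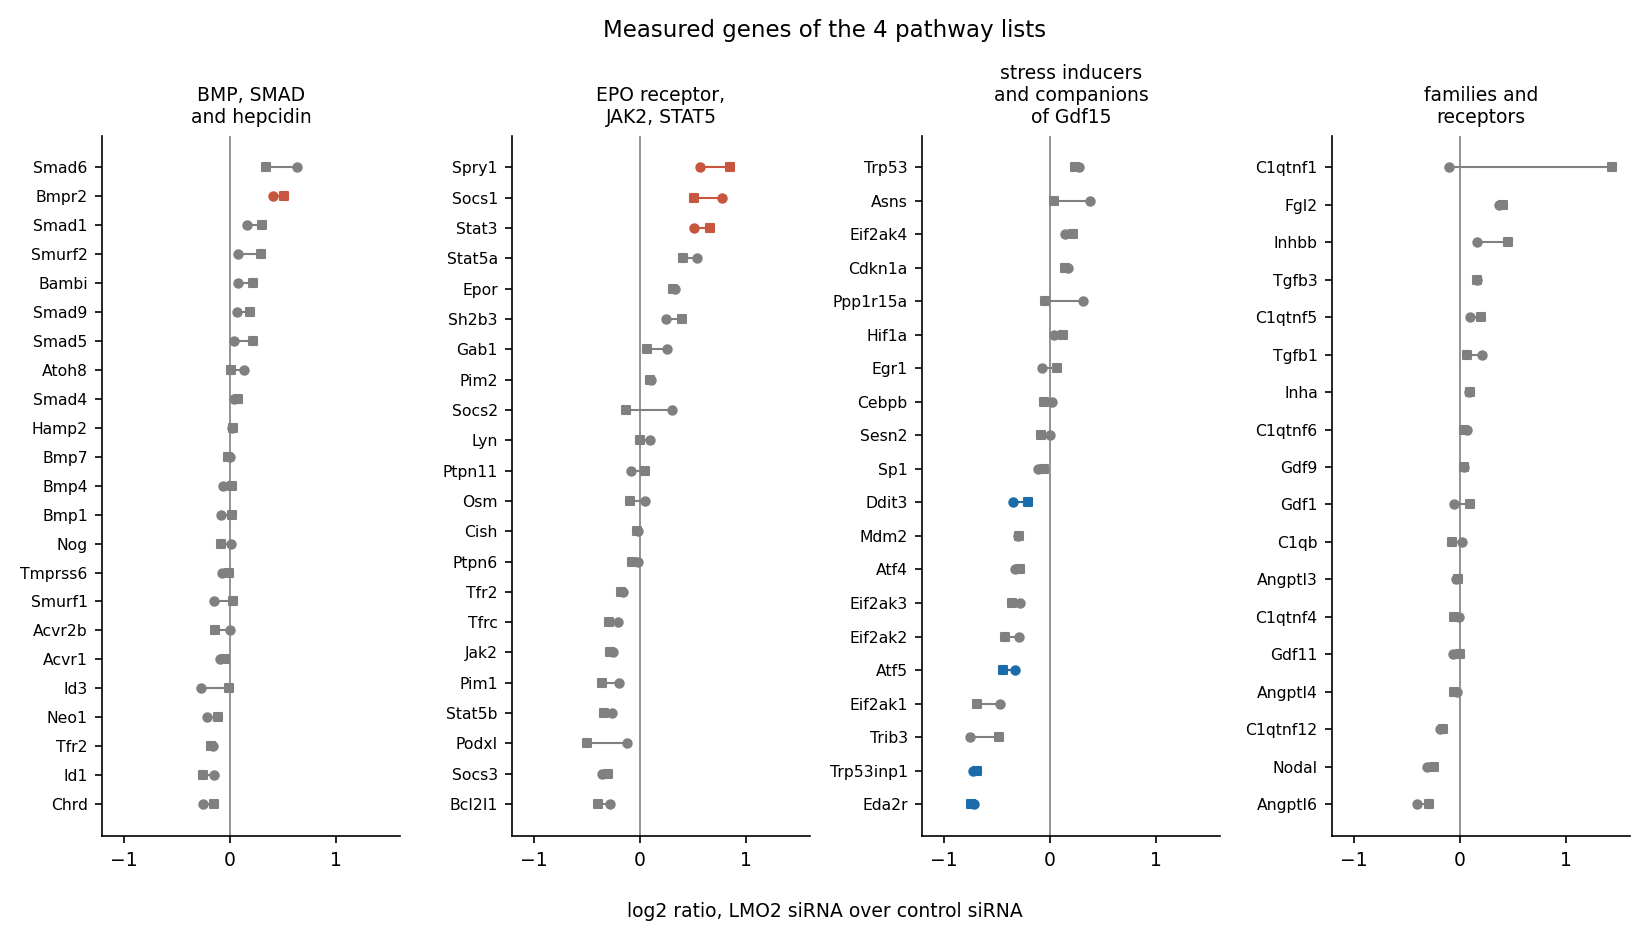
Log2 ratio of LMO2 siRNA over control siRNA for the measured genes of the 4 lists (circle, replicate 1; square, replicate 2; a line joins them), in order of their mean. Red marks genes that rose and blue those that fell in all 3 versions of the values, leaving out genes well above background in 1 arm only: 3 of 22 rose in the EPO receptor list and 1 of 23 in the BMP list, and 4 of 20 fell among inducers and companions of Gdf15. Of all genes 5.49% were called higher and 2.52% lower in all 3 versions without saturation.

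The stretches around the start sites of Erfe and Gdf15 are shown because both were lower and a RefSeq start-site window was at hand for each. Each window runs from 250 bases before the start site to 50 after it on the gene's strand (RefSeq, GRCm38.p6). The start sites used for Erfe and Gdf15 lie inside the annotated genes, which begin at chr1:91366305 and, on the - strand, at chr8:70632470. Windows were found for 3 of the 4 members, Twsg1 being the third. Capitals mark matches, on either strand, to AGATAA and TGATAA (forms of the GATA site), CANNTG (the E-box, which TAL1 and its partners read next to GATA-1 and LMO2), CACCC (read by Krüppel-like factors such as KLF1), TTCNNNGAA (the STAT site), TTGCATCA (an ATF4 site) and TATAA. The TTATAA of Erfe is a TATAA match on each strand, and no other marked matches overlap.
Erfe (chr1:91366180-91366479, + strand): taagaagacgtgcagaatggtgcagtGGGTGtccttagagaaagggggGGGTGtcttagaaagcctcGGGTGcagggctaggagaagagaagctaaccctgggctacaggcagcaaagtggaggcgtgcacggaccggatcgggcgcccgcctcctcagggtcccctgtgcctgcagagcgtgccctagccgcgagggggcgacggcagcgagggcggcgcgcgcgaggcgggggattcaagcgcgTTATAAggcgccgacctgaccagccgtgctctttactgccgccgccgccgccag
Gdf15, upper start site (chr8:70632407-70632706, - strand): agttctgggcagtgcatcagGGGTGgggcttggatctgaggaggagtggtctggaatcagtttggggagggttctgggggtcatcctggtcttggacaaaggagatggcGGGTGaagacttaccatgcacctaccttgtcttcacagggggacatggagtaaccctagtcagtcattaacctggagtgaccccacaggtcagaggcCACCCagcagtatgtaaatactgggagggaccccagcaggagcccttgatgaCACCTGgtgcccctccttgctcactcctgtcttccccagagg
Gdf15, lower start site (chr8:70632046-70632345, - strand): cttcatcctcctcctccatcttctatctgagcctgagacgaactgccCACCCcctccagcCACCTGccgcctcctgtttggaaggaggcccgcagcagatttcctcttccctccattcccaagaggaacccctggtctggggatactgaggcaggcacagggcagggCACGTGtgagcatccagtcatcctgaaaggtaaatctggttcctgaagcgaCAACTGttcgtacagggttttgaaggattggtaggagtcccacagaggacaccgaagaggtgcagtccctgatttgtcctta

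CACCC occurred 3 times in the Erfe window and 3 times and 1 time in the Gdf15 windows, and 57.5% of the 32851 windows in the table hold it. CANNTG, held by 72.3% of windows, occurred 0 times in Erfe and 1 and 3 times in the Gdf15 windows. AGATAA (11.2% of windows), TGATAA (9.1%), TTCNNNGAA (8.3%) and TTGCATCA (0.9%) had no match in any of these windows, which says only that these letters do not occur there. TATAA, held by 24.9% of windows, was found in Erfe and in neither Gdf15 window. The Erfe window was 66.7% G or C and the Gdf15 windows 57.0% and 56.0%, against a median of 52.7% over all windows.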

How the data were processed

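Per the file headers, the authors read the spots with Agilent Feature Extraction 9.1.3.1. Its deposited output holds linear intensity: mean signal, local background and a processed signal that the software had freed of background, corrected for position and dye-normalised. It also holds a position factor, a ratio per spot and channel in the deposited files. Deposited log10 values give Cy5 over Cy3, and the submitters' value table matches them to 0.005.

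From mean signals and local background, normexp (offset 50) and loess with control spots at weight 0 were run in limma 3.58.1 (R 4.3.3), with signs turned so that LMO2 siRNA is on top. Of 41174 distinct probes (repeat spots averaged), 24844 were named by RefSeq accession (GRCm38.p6 table), 9307 kept the array's symbol and 7023 had none. A probe was used where a channel was well above background on each array (24737 probes), and a gene is its brightest used probe (14181 genes). The mean log2 ratio per gene went through lmFit and eBayes (residual degrees of freedom 1, prior 28, or 2.2 in processed signals), so p-values rest mostly on variance pooled over genes. The code was tested on simulated data. For Fgl2 the control mean, after loess and Aquantile, was compared with the lowest signal well above background. The control mean was not the lower value, so the Fgl2 fold is the plain ratio of the channels. The number of arrays limits precision. Arrays share a slide, so slide was not tested as a batch.

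The members, the lists, the named genes and the tests were chosen with earlier results of these data known. Named are the members, Lmo2, the 4 list genes with the largest absolute log2 ratio, fixed pathway genes, and each member's 3 nearest genes. Bmpr2's, Id1's and other probes, Cish, Pim1, Bcl2l1, Socs2, Atf5, Cdkn1a, Hamp2 and the fibrinogen genes, and single marker genes, were named after their values were seen. So were Asns, Eif2ak4, Sesn2, Ppp1r15a and Tgfb3. Alternatives covered offset, normalisation, position, filters, flags, saturation, probe summary, variance trend, the series' own table and each array alone.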

Additional observations from a re-analysis of the deposited data

How the results depend on the processing

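Over the 12 alternatives that keep both arrays, the mean log2 ratios of Erfe, Fgl1 and Gdf15, which were chosen on these values and so have no test, ran from -1.58 to -0.68, from -1.79 to -0.80 and from -1.23 to -0.65. Without replicate 1 or 2 the values ran from -1.14 to -1.10 for Erfe, -1.13 to -1.001 for Fgl1, -0.80 to -0.69 for Gdf15 and 0.07 to 0.22 for Twsg1. Twsg1 turned lower with median centring (-0.47), position correction (-0.10), processed signals (-0.11) and the series' own table (-0.11), and lost its call with the mean of all probes (0.047) and with the median of neighbouring rows subtracted (0.0038), an alternative added after seeing the data. Median centring moved the median of all genes to -0.41, against -0.02 with loess, with 421 genes called higher and 9168 lower. Processed signals gave 996 higher and 503 lower, 918 and 438 were called in the series' own table, and 3488 and 3886 with loess. The cause of these shifts was not tested. For the BMP, EPO receptor, Gdf15-inducer and family lists, counts called higher and lower were 2 and 11, 1 and 17, 0 and 20, and 3 and 7 with median centring. They were 1 and 0, 3 and 0, 0 and 4, and 2 and 0 in processed signals, and the same in the series' own table except 3 lower for the inducers. Position correction gave 3 higher each for the BMP and family lists, and requiring both channels above background 3 higher for the family list. The mean of all probes gave 5 lower for the EPO receptor list, and subtracting the row median 3 lower there and 8 higher and 2 lower for the BMP list. Other list counts stayed within 1.5 times. No count of the lists was made on 1 array, which leaves no residual degrees of freedom. Dim probes (Smad6, Fgl2, the Fgl1 RefSeq probe) are limited by signal over background, which the offset compresses. The fit on each array's ratio is already paired by array, and no replicate block could be added to it.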
